A study of Mus musculus with 2 samples.

Results

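The primary cilium and intraflagellar transport (IFT) were followed through 53 genes out of the 24354 measured in differentiating mouse embryonic stem cells (ESCs). The genes were taken by symbol from a list of components of the BBSome, the IFT-A and IFT-B complexes, the ciliary motors, the transition zone, the planar polarity effectors, the basal body and the polycystins, which also held the ciliary GTPase gene Arl13b and Spata24, a gene for which no role is given here. All 53 were found once each, on 19 chromosomes. RNA was sequenced from 1 library of control cells (Diff–CONT) and 1 library of inducible Ino80 knockout cells (Diff–iKO), so the differences have no replicate check and no p-value is given. Ino80 is the ATPase subunit of a chromatin remodeling complex. The labels call the control line WT, whereas the paper's methods describe floxed Ino80 alleles in both lines (Ino80 2f/2f), with CreER expressed from the ROSA26 locus only in the iKO line. Both lines came from blastocysts, and the number of clones behind each library is not given. Both were treated alike. Embryoid bodies (EBs) were attached at day 4 and then cultured for 7 days with BMP4, a growth factor, and 0.5 µM 4-OHTM, the ligand that activates CreER.

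The primary cilium is a single, non-motile projection of the cell membrane built on a microtubule core that grows from a basal body. Kinesin-2 carries IFT-B trains and their cargo towards the tip, dynein-2 and IFT-A serve the return path, and the BBSome attaches membrane proteins to these trains. The transition zone at the base of the cilium acts as a gate, and signals such as Hedgehog are received through the cilium.

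Expression was given as FPKM, the number of sequenced fragments per kilobase of transcript, scaled for the size of the library, which allows levels to be compared between genes. The steps in which FPKM values rise gave about 27515151 fragments on genes in Diff–CONT and 21382516 in Diff–iKO, 1.29 times fewer. Between 104 and 5821 fragments lay behind each of 52 cilium genes in Diff–CONT and between 33 and 6487 in Diff–iKO, and for Tctn2 no number was recovered. Square brackets hold exact (Clopper-Pearson) 95% intervals on the log2 ratio of Diff–iKO to Diff–CONT, and these cover counting error only. Ino80 itself did not check the labels: its whole-gene FPKM was 8.90 in Diff–CONT and 10.3 in Diff–iKO (log2 ratio 0.21 [0.11, 0.31]). A value over the whole gene need not fall when only some exons are removed, and exons were not analysed here. Every direction below is therefore that of the library labelled Diff–iKO against the library labelled Diff–CONT.

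The cilium genes were expressed at low to moderate levels in both libraries, and all but 6 of them differed by less than 2-fold. FPKM ranged from 2.30 to 34.3 in Diff–CONT and from 1.51 to 26.0 in Diff–iKO, with medians of 8.32 and 6.94. Lower values in Diff–iKO were found for 37 of the genes and higher values for 16 (43 and 10 with both libraries scaled to the same FPKM sum), and 25 of the 53 differed by less than 1.2-fold. The median log2 ratio, computed on FPKM plus 0.1, was -0.20 (SD across genes 0.55, n = 53), against -0.0045 over the 12376 genes with an FPKM of at least 2 in either library. All 53 reached that FPKM minimum, 49 of them in both libraries. A difference of at least 2-fold was used as the cut-off. It was met by 6 cilium genes in the lower direction (Bbs4, Cc2d2a, Spata24, Intu, Bbs1 and Fuz), or 11.3%, beside 8.39% of all genes. In the higher direction it was met by 0 cilium genes, beside 6.73% of all genes. The share in the lower direction was thus close to that of all genes. Of the 52 genes with an interval, 30 (57.7%) had an interval below 0, beside 39.3% of all genes, and 7 (13.5%) had one above 0, beside 38.7% of all genes. The remaining 15 intervals crossed 0. Of the 53 genes, 9 overlap another gene that reaches the FPKM minimum, and the strand setting of the counting is not given, so reads of such pairs may not have been told apart. They are Bbs4, Fuz, Ofd1, Pkd1, Kif7, Ift140, Tctn1, Cep290 and Ttbk2. Ttbk2 overlaps Cdan1 on the same strand, so a strand setting would not separate that pair. The others overlap a gene on the opposite strand.

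**Figure D1:**
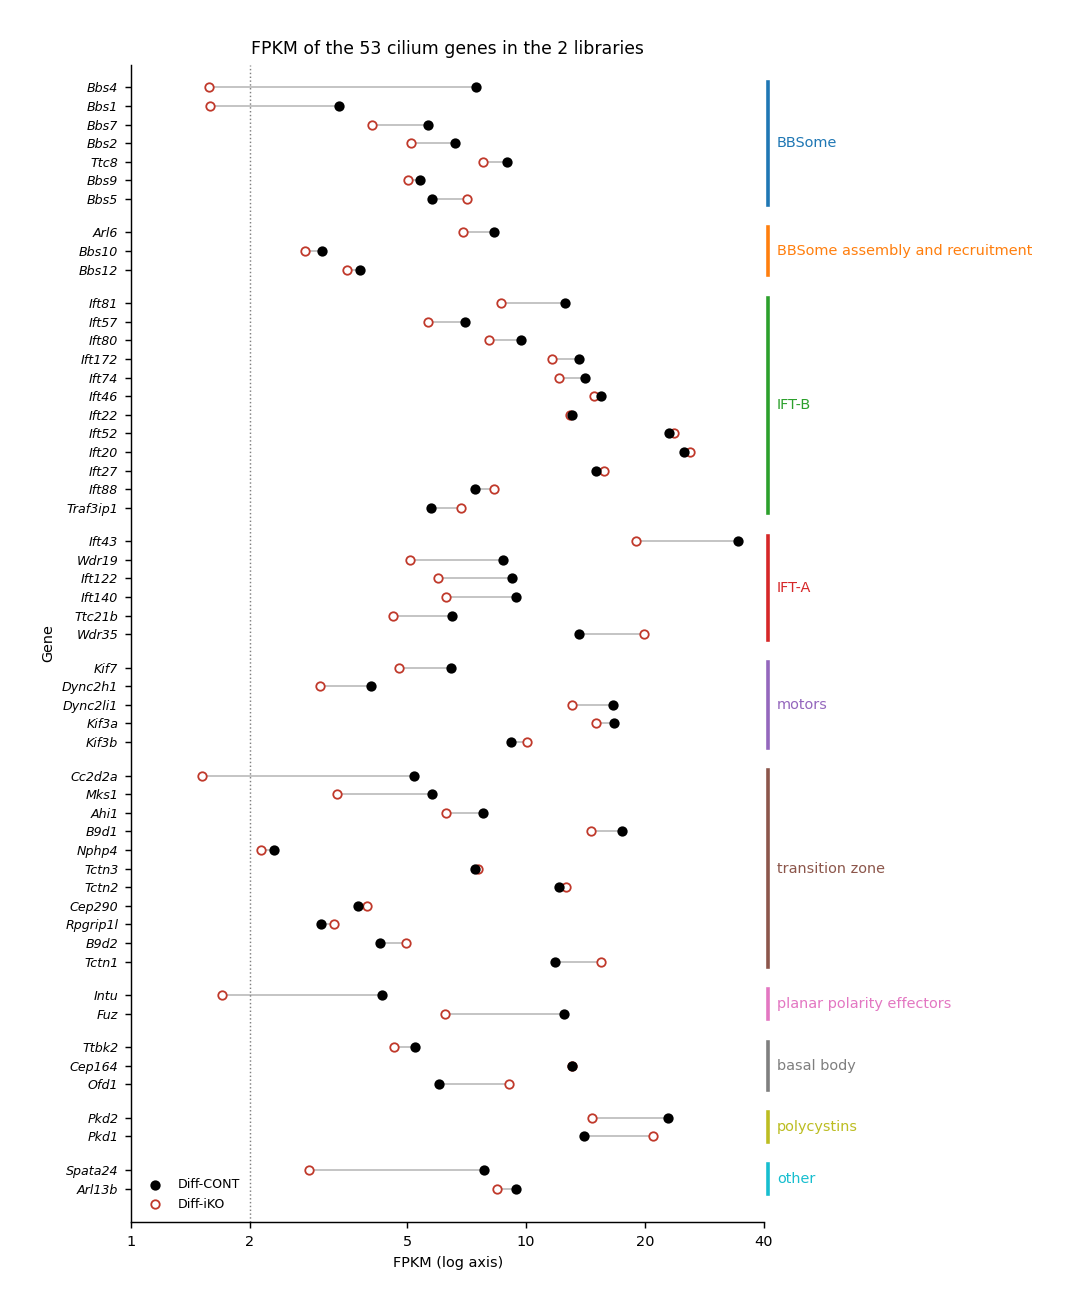
FPKM (log axis) of each of the 53 cilium genes in the Diff–CONT library (filled points) and the Diff–iKO library (open points), grouped by role, with the FPKM minimum of 2 as a dotted line. The widest gaps are those of Bbs4 (7.45 and 1.57) and Cc2d2a (5.20 and 1.51).

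Before the genes are described by role, the letters of their promoters are shown, because cilium genes are known to share the X-box, a motif bound by RFX transcription factors. The X-box is made of a pair of facing 6-base sites with a short spacer. One form of these sites, GTTGCC, was searched for on both strands (GGCAAC on the other). The search ran from 250 bases before to 50 bases after each RefSeq start (GRCm38.p6). A match can be part of an X-box and then overlaps it. The X-box was searched for in the same stretch by a looser pattern. In that pattern some bases of each site may vary, and the spacer is at most 3 bases. An X-box thus need not hold GTTGCC, and that of Tctn2 does not include its GTTGCC match. A promoter was found for 48 of the cilium genes, and Ift80, Ift81, Ift122, Dync2li1 and Spata24 had none. The 6-base site was present in 24 of the 48 (50%), against 14.1% of the 27025 genes with a promoter and 14.8% of the 9861 of them that reach the FPKM minimum. The longer X-box was present in 7 of the 48 (14.6%), namely in Bbs1, Ift57, Ahi1, B9d2, Tctn1, Tctn2 and Tctn3, against 1.75% and 1.85%. Median GC content of the promoters was 59.8% for the cilium genes and 61.3% for genes that reach the minimum. A match describes letters only and is not evidence of binding.

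Windows of 30 bases from promoters of genes that were lower in Diff–iKO, close to equal, and higher in Diff–iKO are given in that order, each read 5′ to 3′ in the direction of the gene, with the 6-base site in capitals. They are shown because the same letters were found near the starts of genes with different ratios. The printed site begins after the start in Bbs1, B9d2, Wdr35 and Tctn1 and before it in the others. The RefSeq start used for Intu lies inside the gene as GENCODE places it, downstream of the GENCODE start. The Tctn1 window ends in a further match, GGCAAC, which is left in lower case.
Intu, chr3:40540713-40540742, plus strand: ccccgtctcccaGGCAACcggcgcctcagc
Bbs1, chr19:4906609-4906638, minus strand: atggctgagctgGTTGCCaaggcgacgcct
Fuz, chr7:44895917-44895946, plus strand: tgaaggtttgtaGGCAACaccttagcacca
Mks1, chr11:87853179-87853208, plus strand: gccagcgtctccGTTGCCaggggaacgagg
B9d2, chr7:25680784-25680813, plus strand: gaggaacctgctGTTGCCccagcaacagtc
Tctn3, chr19:40612354-40612383, minus strand: aggctcccagcgGTTGCCaggtaacgggaa
Wdr35, chr12:8974021-8974050, plus strand: gatgcgactgggcggcggtgGTTGCCaggc
Tctn1, chr5:122264411-122264440, minus strand: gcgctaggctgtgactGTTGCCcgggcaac

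The median log2 ratio on FPKM plus 0.1 was -0.16 for the 24 genes with the 6-base site, of which 15 were lower and 9 higher in Diff–iKO. It was -0.15 for the 24 without it, of which 17 were lower and 7 higher. For the 7 genes with the X-box the median was 0.02, with 3 lower and 4 higher. No match was found in this window for Bbs4 or Cc2d2a. By role, the 6-base site was present in 8 of the 11 transition zone genes and the X-box in 5 of them.

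**Figure D2:**
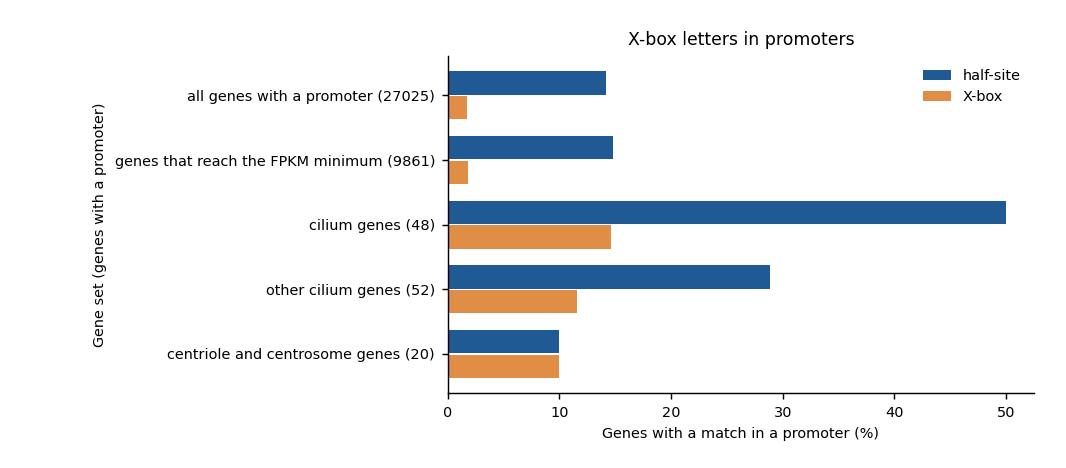
Share of genes (%) whose promoter holds the 6-base X-box site (blue) or the X-box (orange), for each gene set, with the number of genes that have a promoter in brackets. The bars of the cilium genes stand at 50% and 14.6%, and those of all genes with a promoter at 14.1% and 1.75%.

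The BBSome is a coat-like complex that moves membrane proteins through the cilium. Its genes held the largest difference of the 53. Bbs4, a subunit with protein-binding repeats, had an FPKM of 7.45 in Diff–CONT and 1.57 in Diff–iKO (519 and 82 fragments). The level in Diff–iKO was 21.1% of that in Diff–CONT, a log2 ratio of -2.25 [-2.60, -1.91]. Bbs4 lies at chr9:59321990-59353508 (GRCm38) and overlaps Adpgk on the opposite strand, with an FPKM of 29.9 and 50.1. Bbs1, the subunit that binds the GTPase Arl6, lies at chr19:4886878-4906628 and had an FPKM of 3.36 and 1.58 (542 and 190 fragments), a log2 ratio of -1.09 [-1.33, -0.84]. Both of these Diff–iKO levels lie under the FPKM minimum.

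The other BBSome subunits differed less and not all in one direction. Bbs7 had an FPKM of 5.63 in Diff–CONT and 4.07 in Diff–iKO (log2 ratio -0.47 [-0.71, -0.23]). Bbs2, which like Bbs7 belongs to the core that is assembled first, had 6.60 and 5.10 (-0.37 [-0.57, -0.17]). Ttc8, also known as Bbs8, had 8.96 and 7.78 (-0.20 [-0.40, -0.01]). The interval of Bbs9 crossed 0 (5.37 and 5.04, -0.09 [-0.29, 0.10]). Bbs5, a subunit that binds phosphoinositide lipids, was the only one of the 7 that was higher in Diff–iKO, with 5.78 and 7.08 (0.29 [0.01, 0.57]). The summed FPKM of the 7 subunits was 43.2 and 32.2, and their median log2 ratio on FPKM plus 0.1 was -0.36, or -0.15 over those with a mean FPKM of at least 5. The subunits of this complex therefore did not share a common ratio. The genes that assemble or recruit the BBSome were closer to equal. Arl6, which brings it to membranes, had 8.32 and 6.94 (-0.26 [-0.50, -0.02]). The chaperonin-like genes Bbs10 (3.04 and 2.76) and Bbs12 (3.81 and 3.53) had intervals that crossed 0.

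IFT-A and IFT-B form the trains of IFT, and their genes differed in pattern. All 12 IFT-B genes were within 1.5-fold between the libraries, while 5 of the 6 IFT-A genes were lower in Diff–iKO with intervals below 0, beside 39.3% of all genes. The median log2 ratio on FPKM plus 0.1 was -0.60 for IFT-A (SD across genes 0.51, n = 6) and -0.04 for IFT-B (SD 0.23, n = 12). With both libraries scaled to the same FPKM sum the IFT-B median was -0.13. None of the 18 genes passed the 2-fold cut-off. The summed FPKM of IFT-A was 81.8 in Diff–CONT and 60.9 in Diff–iKO, and that of IFT-B was 162 and 154. The ratio of these sums (IFT-A to IFT-B) was 0.506 in Diff–CONT and 0.394 in Diff–iKO.

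Of the IFT-A genes, Ift43, a small subunit, was the highest expressed of all 53 cilium genes in Diff–CONT, with an FPKM of 34.3, and had 18.97 in Diff–iKO (log2 ratio -0.85 [-1.07, -0.64]). Wdr19, also called Ift144, had 8.74 and 5.09 (-0.78 [-0.94, -0.62]). Ift122 had 9.21 and 5.98 (-0.62 [-0.78, -0.47]). The products of Wdr19, Ift122 and Ift140 form the core of IFT-A. Ift140 had 9.43 and 6.28, a log2 ratio of -0.59. Ttc21b, also called Ift139, had 6.49 and 4.62 (-0.49 [-0.67, -0.31]). Wdr35, also called Ift121, went the other way, with 13.6 in Diff–CONT and 19.9 in Diff–iKO (0.55 [0.46, 0.65]). Without Wdr35 the ratio of the IFT-A sum to the IFT-B sum was 0.421 and 0.265.

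Of the 12 IFT-B genes, 5 had intervals below 0, beside 39.3% of all genes. Ift81, whose product binds tubulin together with that of Ift74, had an FPKM of 12.6 in Diff–CONT and 8.62 in Diff–iKO (log2 ratio -0.55 [-0.70, -0.39]). Ift74 had 14.1 and 12.1 (-0.22 [-0.40, -0.04]). The other genes with intervals below 0 were Ift57 (6.99 and 5.65), Ift80 (9.72 and 8.06) and Ift172 (13.6 and 11.6). Traf3ip1, also called Ift54, was the only IFT-B gene with an interval above 0 (5.74 and 6.84, 0.25 [0.08, 0.43]). The remaining IFT-B genes had intervals that crossed 0. They included the most highly expressed of the complex, Ift20, whose product is also found at the Golgi (25.1 and 26.0), and Ift52 (22.9 and 23.7). Ift88, the gene altered in the Oak Ridge polycystic kidney mouse, had 7.44 and 8.29 (0.16 [-0.01, 0.33]). Ift27, a small GTPase, had 15.0 and 15.7, Ift46 had 15.5 and 14.9, and Ift22 had 13.1 and 12.9.

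**Figure D3:**
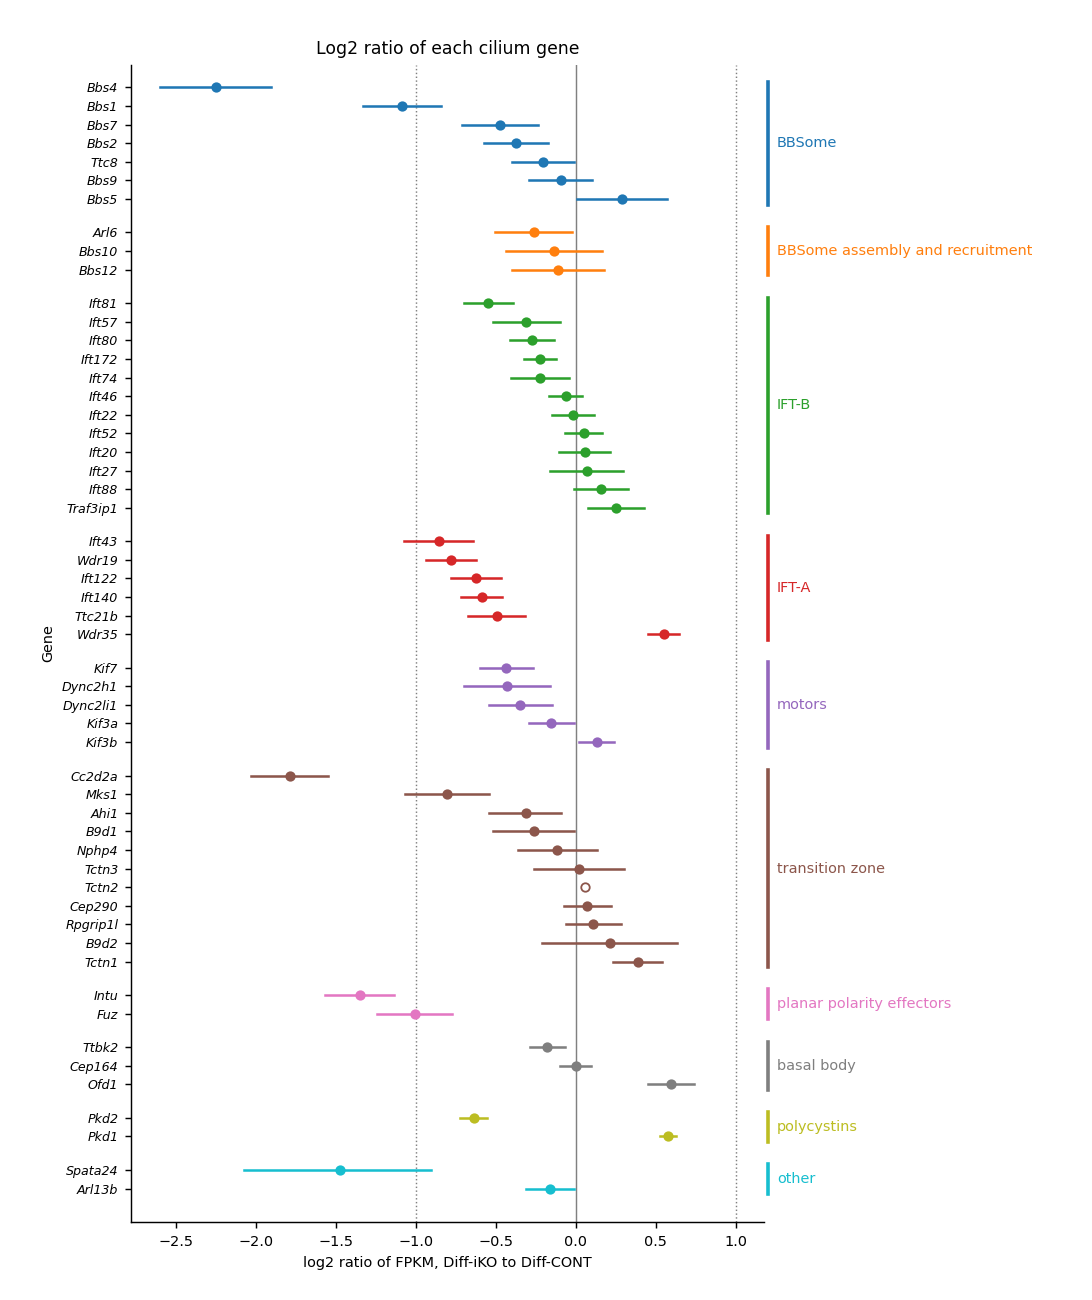
Log2 ratio of FPKM (Diff–iKO to Diff–CONT) of each of the 53 cilium genes, grouped by role, with exact 95% intervals that cover counting error only and with the 2-fold cut-off as dotted lines. Tctn2 (open point) has no interval. The 6 genes past the lower line are Bbs4, Cc2d2a, Spata24, Intu, Bbs1 and Fuz, and Wdr35 stands to the right of the other IFT-A genes.

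The motors of the trains differed by less than 1.5-fold, and 4 of the 5 genes were lower in Diff–iKO. Dync2h1, the heavy chain of dynein-2, had an FPKM of 4.05 in Diff–CONT and 3.01 in Diff–iKO (log2 ratio -0.43 [-0.70, -0.16]), and its light intermediate chain Dync2li1 had 16.6 and 13.1 (-0.35 [-0.54, -0.15]). Kif3a and Kif3b encode the motor subunits of kinesin-2, which work as a heterodimer. Kif3a had 16.7 and 15.0 (-0.15 [-0.29, -0.01]) and Kif3b had 9.16 and 10.02 (0.13 [0.02, 0.24]). Their ratio (Kif3a to Kif3b) was 1.83 in Diff–CONT and 1.499 in Diff–iKO. Kif7, a kinesin at the ciliary tip that acts on Gli proteins in the Hedgehog pathway, had 6.44 and 4.77 (-0.43 [-0.60, -0.27]), and it overlaps Ticrr on the opposite strand (8.49 and 14.2).

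Of the 11 transition zone genes, 1 was past the cut-off in the lower direction, beside 8.39% of all genes. Cc2d2a, a component of the gate whose human ortholog is mutated in Joubert and Meckel syndromes, had an FPKM of 5.20 in Diff–CONT and 1.51 in Diff–iKO (821 and 178 fragments). This is a log2 ratio of -1.79 [-2.03, -1.55], or 3.45-fold lower. The gene lies at chr5:43662346-43740972. Mks1, of the same gate complex, had 5.78 and 3.31 (-0.80 [-1.07, -0.54]). The median of the 11 transition zone genes was 0.02 on FPKM plus 0.1, and it was -0.07 when both libraries were scaled to the same FPKM sum, so it has no firm direction.

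Partners of Cc2d2a and Mks1 in the gate did not share their ratios. B9d1 and B9d2 have a B9 domain like Mks1. B9d1 had an FPKM of 17.5 in Diff–CONT and 14.6 in Diff–iKO (log2 ratio -0.26 [-0.52, -0.01]), and B9d2 had 4.27 and 4.95 (0.21 [-0.21, 0.64]). Of the tectonics, secreted or membrane proteins of the gate, Tctn1 had 11.8 and 15.5 (0.39 [0.24, 0.54]). Tctn2 had 12.1 and 12.6 and Tctn3 had 7.44 and 7.55. Ahi1, a Joubert syndrome gene, had 7.80 and 6.28 (-0.31 [-0.54, -0.09]). Cep290, which links the membrane to the microtubules of the gate, had 3.76 and 3.96. Intervals crossed 0 for Cep290 and also for Rpgrip1l (3.03 and 3.27) and Nphp4 (2.30 and 2.13), which belong to the neighbouring nephronophthisis module.

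Both planar polarity effectors were past the cut-off in the lower direction, beside 8.39% of all genes, and they are only 2 genes. The products of Intu and Fuz act in one complex at the basal body and are needed for cilium assembly. Intu, at chr3:40531286-40704774, had an FPKM of 4.33 in Diff–CONT and 1.70 in Diff–iKO (799 and 234 fragments), a log2 ratio of -1.35 [-1.57, -1.14]. Fuz, at chr7:44896079-44902631, had 12.5 and 6.22 (564 and 210 fragments), a log2 ratio of -1.004 [-1.24, -0.77]. Fuz was at the edge of the cut-off with a fold of 2.01, and it missed the cut-off with a pseudocount of 0.1 (-0.99). It also overlaps Ap2a1, a gene on the opposite strand with an FPKM of 47.4 and 57.4.

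The basal body genes, the polycystins and the remaining genes went in both directions. Cep164, of the distal appendages that dock the basal body, had an FPKM of 13.1 in both libraries, and Ttbk2, the kinase that it recruits to start cilium growth, had 5.23 and 4.63 (log2 ratio -0.18 [-0.29, -0.07]). Ofd1, of the centriole and its satellites, had 6.002 in Diff–CONT and 9.07 in Diff–iKO (0.60 [0.45, 0.74]), the largest difference upwards among the 53. It overlaps Trappc2 on the opposite strand, which had 7.48 and 11.4. Ofd1 is X-linked, and the 419 X-linked genes that reach the FPKM minimum had a median log2 ratio of 0.20 on FPKM plus 0.1, with 254 higher and 165 lower in Diff–iKO. The part of the X chromosome in the value of Ofd1 was not tested.

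The genes Pkd1 and Pkd2 encode a receptor-like protein and a cation channel that form a complex in the ciliary membrane. Pkd1 had an FPKM of 14.0 in Diff–CONT and 20.9 in Diff–iKO (5821 and 6487 fragments), a log2 ratio of 0.58 [0.53, 0.63]. It overlaps Tsc2 on the opposite strand, with an FPKM of 20.04 and 25.5. Pkd2 had 22.9 and 14.7 (3431 and 1645 fragments), a log2 ratio of -0.64 [-0.72, -0.55]. Pkd2 was thus the higher of the pair in Diff–CONT and Pkd1 in Diff–iKO, and the ratio of Pkd1 to Pkd2 was 0.612 and 1.42. Arl13b, a GTPase of the ciliary membrane that is widely used to stain cilia, had 9.42 and 8.43 (-0.16 [-0.31, -0.01]).

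Spata24 was past the cut-off with the fewest fragments of the 6 genes. Its FPKM was 7.82 in Diff–CONT and 2.82 in Diff–iKO (122 and 33 fragments), a log2 ratio of -1.47 [-2.07, -0.91].

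Cilium genes outside the 53 had a median close to theirs. Of 59 such genes, 57 reached a mean FPKM of 1 and had a median log2 ratio of -0.20 on FPKM plus 0.1. Among all 59, 40 were lower and 19 higher in Diff–iKO. Of the 57 intervals, 27 lay below 0 and 9 above, beside 39.3% and 38.7% of all genes. The highest expressed were Arl3 (64.1 and 46.1), Odf2 (58.2 and 45.6) and Arl2bp (37.6 and 28.1). The 26 centriole and centrosome genes had a median of -0.07 and 0 past the cut-off in either direction. Their highest expressed were Tubg1, the γ-tubulin gene (39.0 and 28.6), Tubgcp2 (20.8 and 17.5) and Cep192 (16.4 and 19.9).

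The Hedgehog pathway, which signals through the primary cilium, had a median of -0.47 over the 14 of its genes whose mean FPKM reached 1, with 4 genes past the cut-off in the lower direction. Smo, the transducer that enters the cilium, had an FPKM of 43.0 in Diff–CONT and 20.2 in Diff–iKO. Gli3, a transcription factor of the pathway, had 15.8 and 6.84. Ptch1, the receptor and also a target, had 36.9 and 20.1.

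RNA levels of cell type markers also differed between the libraries, and in bulk libraries fewer cells of a type and less RNA per cell cannot be told apart. In the mouse embryo, primary cilia are found on cells derived from the epiblast and are mostly missing from visceral endoderm and trophoblast. All 8 pluripotent cell markers were higher in Diff–iKO, 7 of them past the cut-off, and their summed FPKM was 468 in Diff–CONT and 2928 in Diff–iKO. Pou5f1, a defining factor of that state, had 60.8 and 247, so both libraries of the labelled differentiating cells held its RNA. All 14 extraembryonic endoderm markers were lower, 13 of them past the cut-off, with sums of 341 and 47.2.

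Of the 12 mesenchyme markers 7 were past the cut-off in the lower direction, with sums of 2001 and 1732. Those sums were dominated by Col1a1 (880 and 1199), the only one of the 12 that was higher, and the list median was -1.02 on FPKM plus 0.1. Cardiomyocyte markers had 5 of 10 past it in the lower direction, with sums of 77.8 and 21.9. Endothelium markers had 4 of 8 past it in the lower and 1 in the higher direction, with sums of 76.0 and 83.7. Pecam1 (16.2 and 53.9) was the only one of the 8 that was higher, and the list median was -1.03. Trophoblast markers had 2 of 11 past it in the lower and 6 in the higher direction, with sums of 541 and 744. Neural cell markers had 0 of 5 past it in either direction, with sums of 108 and 101. Markers of multiciliated cells, which carry motile cilia, had sums of only 10.6 and 11.98 over 15 genes, and 2 of them, Foxj1 (3.75 and 2.89) and Ccno (0.237 and 2.08), reached the FPKM minimum. No marker of any list was at 0 in either library. The part of these markers' cell types in the values of the cilium genes was not tested.

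**Figure D4:**
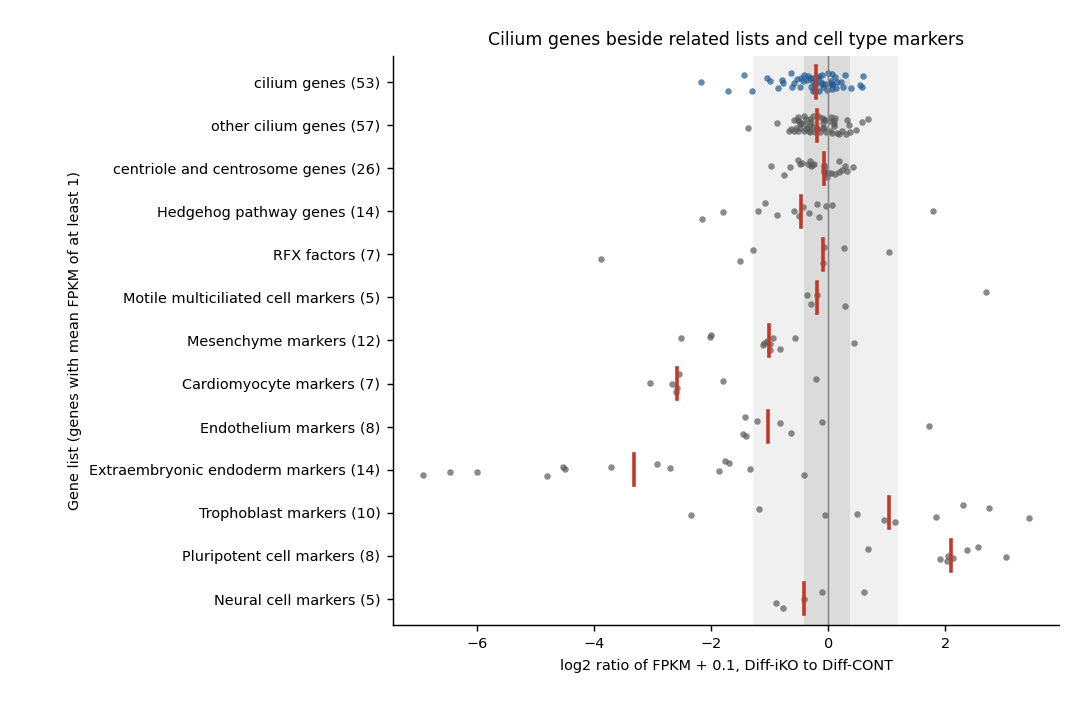
Log2 ratio of FPKM plus 0.1 (Diff–iKO to Diff–CONT) of each gene (points) of the cilium genes, of related gene lists and of cell type markers, with the list median as a red bar. Dark and light bands hold the middle 50% and 90% of all genes that reach the FPKM minimum. The cilium genes have a median of -0.20, the pluripotent cell markers 2.09 and the extraembryonic endoderm markers -3.32.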

How the data were processed

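Poly(A) RNA of 1 Diff–CONT and 1 Diff–iKO library, made with a stranded kit from 1 µg of total RNA, was analysed. The authors deposited FPKM values, scaled for library size, for 24354 genes. The submitters' processing notes name STAR 2.7.9a, Cufflinks 2.2.1, Cuffnorm and mm10. The gene annotation and strand setting are not given in the sources used here. Genes that overlap another gene are therefore uncertain. Column names tied the 2 value columns to the libraries, which left 0 columns unassigned.

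The log2 ratio of Diff–iKO to Diff–CONT was taken without a pseudocount for single genes. The cut-off was a fold change of at least 2 and FPKM of at least 2 in at least 1 library. Medians of lists used FPKM plus 0.1 and genes whose mean FPKM reached 1. With 1 library per condition no test was possible. Fragments were recovered from the FPKM steps of 10484 genes with 1 transcript. Of the low values, 88.0% in Diff–CONT and 88.1% in Diff–iKO were within 0.2 of a whole number of fragments, where 40% would be by chance. Fragments per gene use the shortest transcript matched (23021 genes), so they are approximate for the cilium genes other than the 35 with 1 annotated transcript. PCR copies are not independent molecules.

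Gene coordinates are from GENCODE (GRCm38), promoters from RefSeq (GRCm38.p6). All 53 cilium genes are named. Of each other list the 3 genes of highest mean FPKM and up to 5 with the largest fold past the cut-off were eligible for naming, and not all are printed. Wdpcp, 2410089E03Rik and Rsg1 were named in addition, as planar polarity effectors outside the 53. Some items are not reported here. The genes, lists and settings were chosen with earlier results of these data known. Recovery of fragments and the cut-off were tested on simulated data. The alternatives were other filters, fold changes, pseudocounts and scalings. Tools were scipy 1.17.1, numpy 2.4.6 and pandas 2.3.3 in Python 3.11.15, with matplotlib 3.10.9 for plots.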

Additional observations from a re-analysis of the deposited data

How the results depend on the processing

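The number of cilium genes past the cut-off in the lower direction depended on the settings. It was 6 as reported, 2 when both libraries had to reach FPKM 2 (Fuz and Spata24), 3 with a pseudocount of 1 (Bbs4, Cc2d2a and Spata24), 12 at a fold change of 1.5 and 1 at a fold change of 4 (Bbs4). In the higher direction it was 0 as reported and 1 at a fold change of 1.5 (Ofd1). The lower count was 5, without Fuz, with a pseudocount of 0.1, with upper quartile scaling and with centred ratios. The median of the basal body genes was 0.29 when genes needed a mean FPKM of 5 to enter, and -0.00023 as reported. Medians of other role groups that moved by over 1.5 times, but by less than the counting intervals of their genes, were those of the BBSome (-0.15 with a mean FPKM of 5) and of BBSome assembly (-0.13 as reported, -0.26 with a mean FPKM of 5, -0.22 with the same FPKM sum). With the same FPKM sum the medians of IFT-B (-0.13), the basal body (-0.09) and the transition zone (-0.07) also moved. The median of the 53 genes lay between -0.29 (same FPKM sum, which shifts the ratio of every gene by -0.09) and -0.18 (pseudocount of 1). No paired analysis was possible because each condition had 1 library, and for the same reason no library could be left out. Spread between cultures is unknown. Depth limits short genes of low FPKM most, such as Spata24, with 122 and 33 fragments, and B9d2, with 104 and 90.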

Other observations

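Several cilium genes have a neighbour on the opposite strand whose start lies within 1000 nucleotides of their own. In 9 cases the neighbour reached the FPKM minimum. Next to Ift80 (log2 ratio -0.27), Smc4 had an FPKM of 60.3 in Diff–CONT and 44.2 in Diff–iKO (-0.45). Next to Ift122 (-0.62), Mbd4 had 6.16 and 5.17 (-0.25), and next to Ift140 (-0.59), Cramp1l had 11.8 and 9.70 (-0.28). Next to Dync2h1 (-0.43), Dcun1d5 had 36.3 and 38.3 (0.08). Trappc2, whose start is 130 nucleotides from that of Ofd1, overlaps it, and the log2 ratio was 0.60 for both genes. Without the strand setting their reads may not have been told apart. For Ift20, Ift46, Cep290 and Rpgrip1l the interval of the cilium gene crossed 0, and so no direction is compared.

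The RFX transcription factors, which bind the X-box, differed in both directions. Rfx3 had an FPKM of 6.05 in Diff–CONT and 2.43 in Diff–iKO (log2 ratio -1.32 [-1.60, -1.04]), and Rfx4 had 6.01 and 2.05 (-1.55 [-1.83, -1.28]). Rfx2 had 5.42 and 11.2 (1.04 [0.88, 1.21]). Rfx6, which acts in pancreatic development, had 4.20 and 0.191, with 12 fragments in Diff–iKO. The most highly expressed was Rfx7 (14.0 and 16.8), and Rfx1 had 7.86 and 7.35. Of the 8 RFX genes, 3 were past the cut-off in the lower and 1 in the higher direction.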
